A study of Homo sapiens with 6 samples.

Results

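Chromatin accessibility was examined at 7 loci of the glucocorticoid response and of BIM-dependent apoptosis, in 3 lines of B-cell acute lymphoblastic leukemia. The loci were NR3C1, FKBP5, KLF9, ZBTB16, GLCCI1, BCL2L11 and BMF, each defined as a fixed hg19 window around the gene. Every peak that overlapped a window by at least 1 bp was taken, whatever its value, and touching or overlapping peaks of the 12 peak lists were merged into regions. This gave 67 regions from 459 peaks, of 130872 regions from 718792 peaks in all. The windows were chr5:142.64-142.83 Mb for NR3C1, chr6:35.53-35.71 Mb for FKBP5, chr9:72.99-73.04 Mb for KLF9, chr11:113.92-114.13 Mb for ZBTB16, chr7:8.0-8.14 Mb for GLCCI1, chr2:111.86-111.94 Mb for BCL2L11 and chr15:40.37-40.41 Mb for BMF.

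The data are ATAC-seq, in which a transposase inserts sequencing adapters into accessible DNA. The knockdown samples carried sh2, a short hairpin RNA against NSD2, and the control samples carried NT, a non-targeting hairpin. NSD2 is a methyltransferase of histone H3. Each hairpin was studied in RS4;11 and SEM, which carry a KMT2A-AFF1 fusion, and in the line titled RCH, presumably the RCH-ACV named among the cultured lines. The labels name bone marrow as the tissue of all lines and no treatment, so no glucocorticoid was recorded in any sample, and they do not give the NSD2 genotype of each line. All knockdown samples carried the same hairpin. Each of the 6 samples, 1 for each line and hairpin, came with 2 peak lists, called here list 1 and list 2. The labels do not state whether these were independent cultures or technical repeats, and no test of sh2 against NT was possible within a line.

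Glucocorticoids are a backbone of treatment for lymphoblastic leukemia. The hormone binds the glucocorticoid receptor, encoded by NR3C1, which enters the nucleus, binds DNA at glucocorticoid response elements and raises transcription of genes such as FKBP5, KLF9 and ZBTB16. In lymphoid cells the response ends in apoptosis, for which induction of BIM, encoded by BCL2L11, is a main step. BMF encodes another BH3-only protein of the same class.

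The reference promoters of the genes are shown for FKBP5, the receptor target with 2 listed promoter windows of unlike base composition, and for BCL2L11, the apoptosis effector. The sequences are from RefSeq, build GRCh38.p14, from 250 bases before to 50 bases after a transcription start, and 14 such windows matched 6 of the genes by symbol. ZBTB16 had no window, and NR3C1 had the most of any gene, with some overlap among them. Since the peak lists are in hg19, the windows were not placed on the peaks. In the first sequence (chr6:35728534-35728833, minus strand) capitals mark the receptor hexamer AGAACA, which starts at position 251, and in the second (chr6:35688866-35689165, minus strand) and the BCL2L11 sequence (chr2:111120664-111120963, plus strand) capitals mark CpG dinucleotides.
FKBP5 window with hexamer: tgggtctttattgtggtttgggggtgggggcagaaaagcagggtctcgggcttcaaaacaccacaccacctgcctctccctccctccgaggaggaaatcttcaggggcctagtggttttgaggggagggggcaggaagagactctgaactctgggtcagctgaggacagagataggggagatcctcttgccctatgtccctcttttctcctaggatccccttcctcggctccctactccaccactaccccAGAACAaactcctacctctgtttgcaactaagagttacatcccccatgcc
FKBP5 CpG-rich window: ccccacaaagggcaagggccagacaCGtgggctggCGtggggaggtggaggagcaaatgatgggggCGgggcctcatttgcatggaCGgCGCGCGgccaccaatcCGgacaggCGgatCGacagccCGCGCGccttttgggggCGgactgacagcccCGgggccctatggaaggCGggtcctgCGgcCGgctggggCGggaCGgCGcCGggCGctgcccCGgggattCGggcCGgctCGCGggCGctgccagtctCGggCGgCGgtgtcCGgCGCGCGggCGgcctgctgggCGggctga
BCL2L11 window: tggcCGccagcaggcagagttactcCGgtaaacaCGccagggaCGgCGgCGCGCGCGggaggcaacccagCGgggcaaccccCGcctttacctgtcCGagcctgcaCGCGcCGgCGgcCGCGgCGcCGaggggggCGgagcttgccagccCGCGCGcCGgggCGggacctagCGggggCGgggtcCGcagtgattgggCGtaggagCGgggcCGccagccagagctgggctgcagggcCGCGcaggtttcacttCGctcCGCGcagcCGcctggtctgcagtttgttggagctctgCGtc
The second FKBP5 window held 38 CpGs at 76.0% GC and the BCL2L11 window 39 CpGs at 74.7% GC, against 3 CpGs and 55.7% GC in the first FKBP5 window and medians of 14 CpGs and 58.7% GC over 35116 promoters. The receptor palindrome (AGAACA, any 3 bases, TGTTCT), searched on both strands with at most 2 mismatches in its 12 fixed letters, was in 0 of the 14 windows and in 1.41% of all promoters. The hexamer, in either orientation (AGAACA or TGTTCT), was in 1 of the 14 windows and in 14.8% of all promoters. The hexamers are the arms of the palindrome, so the searches overlap. A motif that is not in these letters can lie elsewhere in a locus.

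Each list gave every peak a value in column 5, read as its fold enrichment over the background of the same library. The lists held 41594 to 84794 peaks on chromosomes 1 to 22 and X, with median fold enrichments of 5.32 to 7.10. List lengths differed between sh2 and NT by -21.4% in RS4;11, 16.1% in SEM and -24.4% in RCH. At the 7 loci the mean number of peaks per list was 43.0 with sh2 and 46.5 with NT in RS4;11, a change of -7.53%. It was 40.0 and 39.5 in SEM, a change of 1.27%, and 26.5 and 34.0 in RCH, a change of -22.1%. True sequencing depth is unknown, and its part in these differences was not tested. Fold enrichments are not normalized between lists. Where a locus is described, above, below and overlap refer to the values as deposited. A centred difference is a log2 difference, sh2 minus NT. It was taken after each list was centred on its median over regions with a peak in every list of the line. The medians of 5.32 to 7.10, over all peaks of a list, were not used for this.

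Each locus had open regions shared by all lines, but not every strong region was shared. The KLF9 region at chr9:73013040-73013438, for example, reached 10.8 in RS4;11 and had no peak in RCH. Regions are ranked below by mean percentile over all 12 lists, so a region missing from some lists ranks lower. Of the 67 regions, 16 (23.9%) had a peak in all 12 lists, against 16.5% of all regions. Among these were 4 at FKBP5, 3 at KLF9, 2 each at NR3C1, ZBTB16, BCL2L11 and BMF, and 1 at GLCCI1, so that every locus had at least 1 such region. They were 533 to 2331 bp wide with a median of 960 bp, against 200 to 836 bp and a median of 334 bp for the other 51. In the whole series the medians were 837 bp for regions with a peak in all 12 lists and 359 bp for all regions, those included. Merging joins peaks of different lists, so the width of a region can grow with the number of lists that hold a peak. A total of 14 regions (20.9%) had a peak in only 1 list, against 28.3% of all regions, with a median width of 204 bp. The windows differ in length, and the number of regions per 100 kb was 22.5 at BMF, 14.0 at KLF9, 11.0 at ZBTB16, 6.84 at NR3C1, 6.25 at BCL2L11, 4.44 at FKBP5 and 1.43 at GLCCI1.

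**Figure D1:**
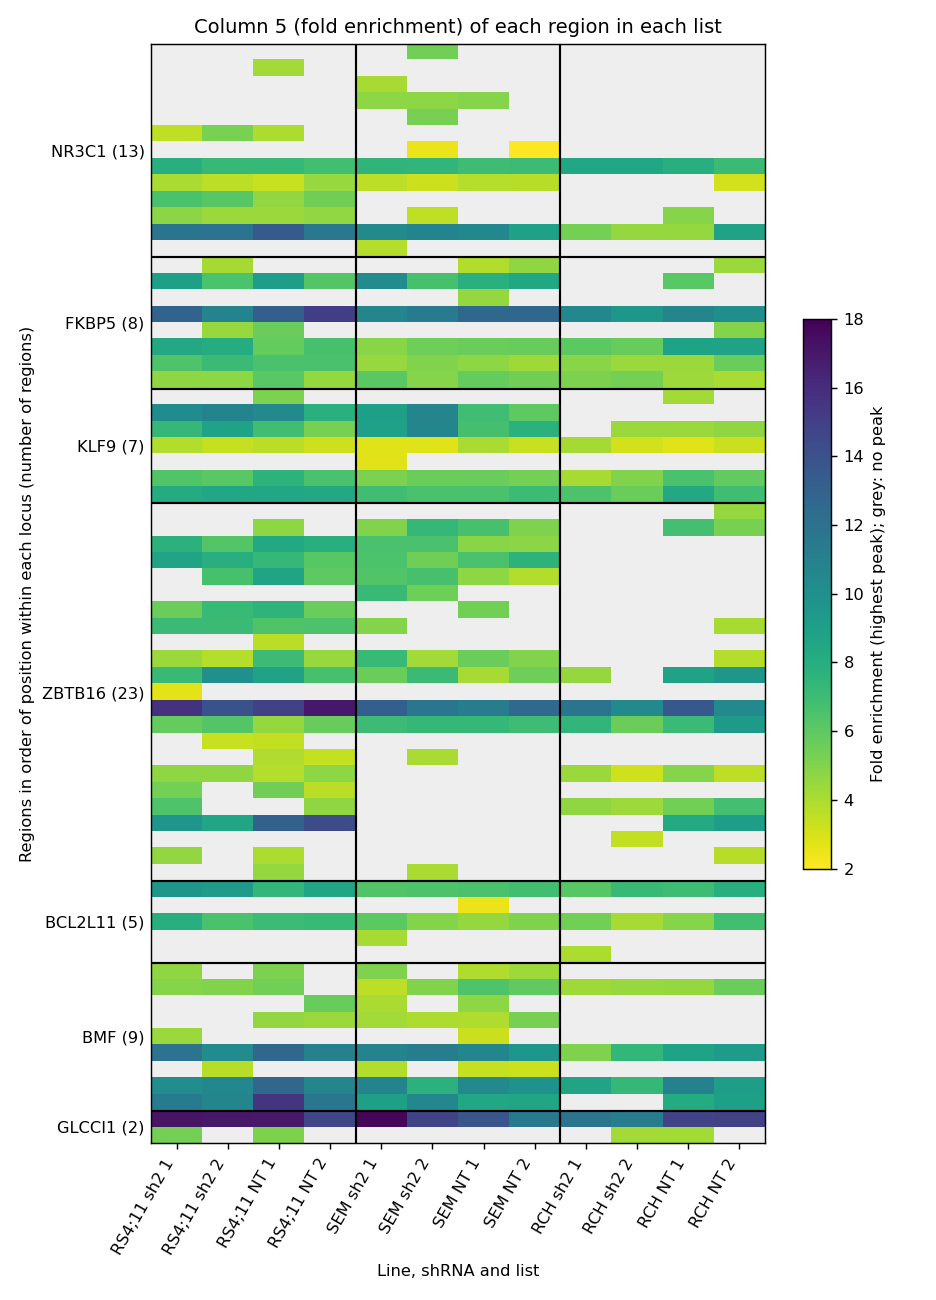
Fold enrichment (column 5, highest peak) of the 67 regions in each of the 12 lists. Each row is a region in order of position within its locus, each column a list, and grey means no peak. The 16 rows without grey are the regions with a peak in all 12 lists.

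NR3C1, the receptor gene, had 13 regions, and 2 of them had a peak in every list. The wider one, chr5:142782903-142784531 (1629 bp), had fold enrichments of 7.89 and 7.27 with sh2 and 7.25 and 6.83 with NT in RS4;11. In SEM the values were 7.54 and 7.45 with sh2 and 6.96 and 7.04 with NT. In RCH they were 8.49 and 8.42 with sh2 and 7.97 and 7.12 with NT. In each line both sh2 values lay above both NT values. The centred differences were 0.23 in RS4;11, -0.03 in SEM and 0.51 in RCH, so the direction in SEM turned with centring. The other constant region, chr5:142814659-142815191, ranked highest at the locus. It had 11.8 and 11.9 with sh2 and 13.5 and 11.6 with NT in RS4;11, and 10.4 and 10.8 with sh2 and 10.5 and 8.85 with NT in SEM. RCH had 5.31 and 4.55 with sh2 and 4.55 and 8.79 with NT there, and the sh2 and NT lists overlapped in every line. Within their own lists these peaks stood at percentiles 75.4 to 87.5 in RS4;11 and SEM, and at 21.4 to 76.2 in RCH, where the highest was NT list 2.

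A region between them at chr5:142793816-142794101 had a peak in all 4 RS4;11 lists, with 6.61 and 6.15 with sh2 and 4.59 and 5.50 with NT, and in no list of SEM or RCH. It was the 1 member of 67 (1.49%) with this pattern, which 2.03% of all regions showed. The number of NR3C1 peaks was 6 and 8 with sh2 and 4 and 4 with NT in SEM, against 2 and 2 with sh2 and 4 and 3 with NT in RCH. In RS4;11 it was 6 and 6 with sh2 and 8 and 5 with NT. The lists of sh2 and NT did not overlap in SEM, where sh2 had more, or in RCH, where sh2 had fewer, and they overlapped in RS4;11. The lists as a whole also held more peaks with sh2 in SEM and fewer in RCH.

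FKBP5 encodes a co-chaperone of HSP90 that lowers the hormone affinity of the receptor and is itself a receptor target. It had 8 regions, and 4 had a peak in all lists. The highest-ranked, chr6:35655749-35657049 (1301 bp), had 12.9 and 10.9 with sh2 and 13.2 and 15.1 with NT in RS4;11, 10.7 and 11.4 with sh2 and 12.6 and 12.6 with NT in SEM, and 10.5 and 9.53 with sh2 and 10.7 and 10.0 with NT in RCH. Its peaks stood at percentiles 77.6 to 94.3 of their lists. In RS4;11 and in SEM both sh2 values lay below both NT values, and in RCH they overlapped. The centred differences were -0.12 in RS4;11, -0.32 in SEM and 0.30 in RCH. In SEM alone were both sh2 lists beyond both NT lists on both scales, and with the mean of the peaks in place of the highest those of SEM overlapped as well (-0.23).

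The FKBP5 region at chr6:35687339-35688530 differed in direction between the lines. With sh2 it had 8.33 and 8.12 in RS4;11, where NT had 5.80 and 6.68. In RCH it had 6.0 and 5.69 with sh2 and 8.69 and 8.81 with NT. In SEM it had 4.86 and 5.50 with sh2 and 5.6 and 5.69 with NT. The sh2 values lay above those of NT in RS4;11 and below them in both other lines, with no overlap. The centred differences were 0.53 in RS4;11, -0.26 in SEM and -0.24 in RCH. With the mean of the peaks in the region in place of the highest, the difference in RS4;11 was 0.28 and its lists overlapped. A further region, chr6:35569146-35569981, had a peak in all 8 lists of RS4;11 and SEM (6.30 to 10.3) but in RCH only in NT list 1, at 6.10. The number of FKBP5 peaks averaged 8.0 with sh2 and 8.0 with NT in RS4;11, 6.0 and 8.0 in SEM, and 6.0 and 7.5 in RCH, and the lists of sh2 and NT overlapped or touched in number in every line.

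KLF9 encodes a Kruppel-like transcription factor that is a direct receptor target in many tissues. Its highest-ranked region, chr9:73033691-73036021, was the widest of the 67 at 2331 bp. It had 8.18 and 8.45 with sh2 and 8.49 and 8.34 with NT in RS4;11, 6.93 and 6.62 with sh2 and 6.60 and 7.02 with NT in SEM, and 6.48 and 5.68 with sh2 and 8.32 and 6.90 with NT in RCH. The values overlapped in RS4;11 and SEM, and those of RCH were lower with sh2. The constant region at chr9:73028206-73029463 had 6.37 and 6.07 with sh2 and 7.63 and 6.62 with NT in RS4;11, 5.18 and 5.6 with sh2 and 5.68 and 5.35 with NT in SEM, and 4.07 and 5.01 with sh2 and 6.60 and 5.87 with NT in RCH. It was lower with sh2 in RS4;11 and RCH as deposited, and lower in SEM alone once centred (-0.17). The narrow constant region at chr9:73026895-73027593 was weak, at 2.75 to 4.13 in all lists, with centred differences of 0.20 in RS4;11, -0.53 in SEM and 0.60 in RCH.

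A pair of narrower KLF9 regions set the lines apart. The region chr9:73013040-73013438 had 10.2 and 10.8 with sh2 and 10.3 and 7.84 with NT in RS4;11, and 8.95 and 10.7 with sh2 and 6.90 and 5.97 with NT in SEM. RCH had no peak there in any of its 4 lists. At chr9:73021295-73021762 there were 7.37 and 8.72 with sh2 and 6.91 and 5.25 with NT in RS4;11, and 8.84 and 10.6 with sh2 and 6.73 and 7.76 with NT in SEM. RCH had weaker peaks there, of 4.40 in 1 sh2 list and 4.41 and 4.68 in the NT lists. In SEM both sh2 lists exceeded both NT lists at both regions (centred 0.48 and 0.29), and in RS4;11 they did so at the region at 73021295 (centred 0.54). Regions with a peak in all 8 lists of RS4;11 and SEM and none in RCH numbered 3 of 67 (4.48%), 1 at KLF9 and 2 at ZBTB16, against 1.44% of all regions.

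ZBTB16 encodes PLZF, a zinc finger transcription factor that receptor activation induces strongly in lymphoid and other cells. With 23 regions it had the most of any locus, but only 2 had a peak in all lists. The strongest, chr11:114030508-114031171, had 15.6 and 14.0 with sh2 and 14.8 and 16.9 with NT in RS4;11, 13.2 and 11.7 with sh2 and 11.2 and 12.5 with NT in SEM, and 11.8 and 10.4 with sh2 and 13.6 and 10.4 with NT in RCH. The lists of sh2 and NT overlapped in all 3 lines. The neighbouring constant region at chr11:114037611-114038183 had 5.76 and 6.27 with sh2 and 4.53 and 5.72 with NT in RS4;11, 7.04 and 7.32 with sh2 and 7.35 and 6.99 with NT in SEM, and 7.44 and 5.59 with sh2 and 7.12 and 9.27 with NT in RCH. In RS4;11 both sh2 values lay above both NT values (centred 0.37), and the lists of SEM and RCH overlapped.

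Other ZBTB16 regions differed between lines. The regions chr11:113953405-113954000 and chr11:113967729-113968218 had peaks of 4.77 to 8.67 in all lists of RS4;11 and SEM and none in RCH. The region chr11:114043678-114044190 had peaks in all RS4;11 and RCH lists (3.14 to 4.92) and none in SEM, the 1 member of 67 (1.49%) with that pattern, against 0.426% of all regions. Of the other 3 patterns of this kind, a peak in all 4 SEM lists only, in all 4 RCH lists only, or in all 8 lists of SEM and RCH only was found at 0 members, against 0.957%, 0.889% and 0.355% of all regions.

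At chr11:114087444-114087976 RCH had no peak with sh2, against 8.22 and 9.02 with NT, and the nearest sh2 peak of the line lay 9464 bp away. In RS4;11 the same region had 9.63 and 8.53 with sh2 and 13.0 and 14.4 with NT, and both sh2 values were below both NT values. SEM had no peak there. A weaker region at chr11:113951038-113951343 had no peak with sh2 in RCH, against 6.79 and 5.31 with NT, while SEM had 5.04 and 7.37 with sh2 and 6.68 and 5.10 with NT. The reverse was seen at chr11:113970175-113970501, with 7.17 and 5.56 with sh2 in SEM and no peak with NT or in the other lines. The number of ZBTB16 peaks was 14 and 12 with sh2 and 18 and 14 with NT in RS4;11, 10 and 11 with sh2 and 9 and 8 with NT in SEM, and 5 and 5 with sh2 and 7 and 11 with NT in RCH. Lists of sh2 had more peaks than those of NT in SEM and fewer in RCH, without overlap, both at the locus and over the whole lists.

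GLCCI1, a gene first found as a glucocorticoid-induced transcript, had the strongest region of all. At chr7:8007978-8009570 (1593 bp) fold enrichment was 17.2 and 17.0 with sh2 and 16.9 and 14.6 with NT in RS4;11, 17.7 and 14.8 with sh2 and 13.8 and 11.6 with NT in SEM, and 11.8 and 11.2 with sh2 and 14.8 and 14.9 with NT in RCH. The sh2 lists lay above the NT lists in RS4;11 and SEM and below them in RCH. Once centred the lists overlapped in SEM and RCH, and RS4;11 had a difference of 0.25, whose lists overlapped too when the mean of the peaks was used. It stood at percentiles 90.5 to 99.3 in its lists. Its mean percentile of 95.3 was the highest of the 67 regions. The rest of the 140 kb window held 1 weak region, with peaks of 4.20 to 5.33 in 4 lists.

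**Figure D2:**
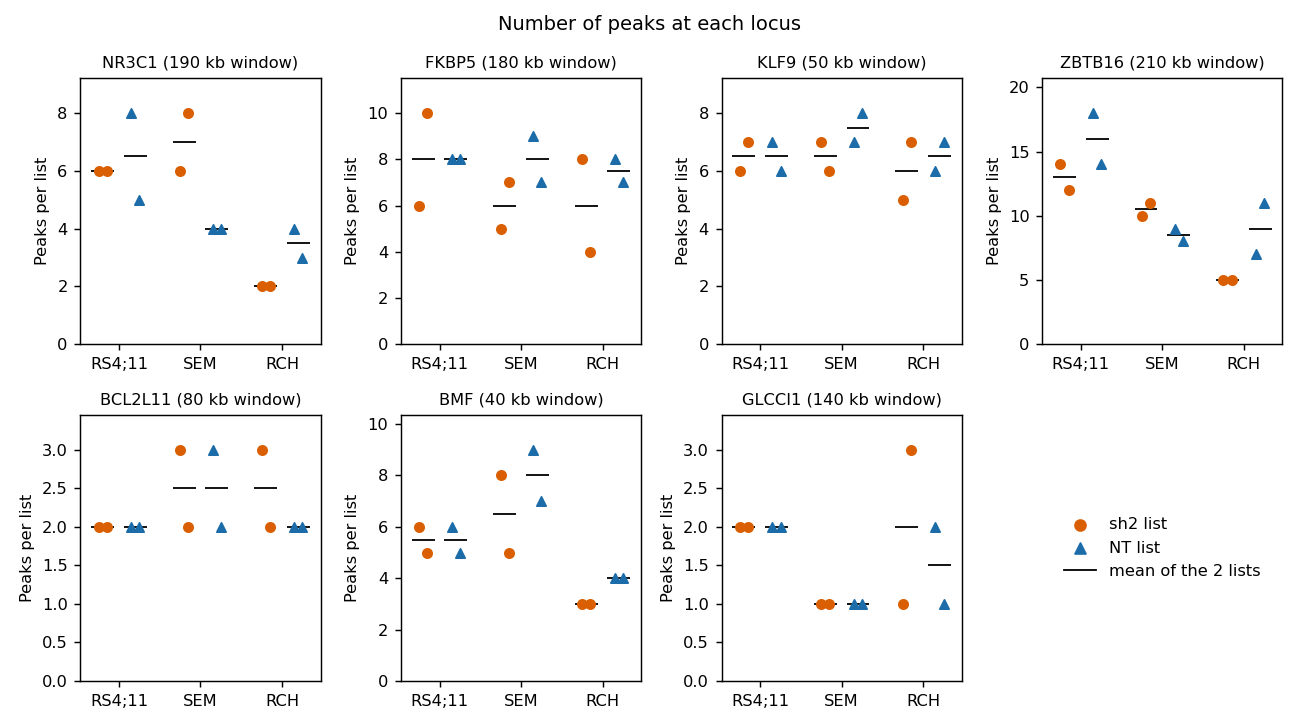
Number of peaks per list at each locus, by line, with sh2 as circles left of NT as triangles and a bar at the mean of the 2 lists. ZBTB16 ranges from 5 peaks in both RCH sh2 lists to 18 in RS4;11 NT list 1, while BCL2L11 has 2 or 3 in every list.

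BCL2L11 encodes BIM, which binds and neutralizes anti-apoptotic BCL2 proteins. It had 5 regions, 2 of them in all lists, and each list had 2 or 3 peaks. At chr2:111877774-111878632 (859 bp) fold enrichment was 9.54 and 9.23 with sh2 and 7.39 and 8.62 with NT in RS4;11, 6.35 and 6.44 with sh2 and 6.60 and 6.86 with NT in SEM, and 6.13 and 7.15 with sh2 and 6.96 and 7.91 with NT in RCH. Values with sh2 were higher in RS4;11 (centred 0.36) and lower in SEM (centred -0.21), and they overlapped in RCH. At chr2:111879819-111880372 there were 7.95 and 6.61 with sh2 and 7.05 and 7.22 with NT in RS4;11, 6.01 and 4.97 with sh2 and 4.55 and 5.11 with NT in SEM, and 5.43 and 4.12 with sh2 and 4.89 and 6.84 with NT in RCH. These overlapped in every line. The other 3 BCL2L11 regions were in 1 list each. It follows that 0 of the 5 had peaks in both lists of 1 hairpin and neither list of the other in any line. The shares of all regions with such peaks are given below.

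BMF encodes a BH3-only protein that counteracts anti-apoptotic BCL2 proteins and, like BIM, can rise in lymphoid cells given glucocorticoids. It had 9 regions in 40 kb. The highest-ranked, chr15:40400841-40401614, had 10.1 and 10.5 with sh2 and 12.7 and 10.7 with NT in RS4;11, 10.8 and 7.70 with sh2 and 10.5 and 9.86 with NT in SEM, and 8.64 and 7.31 with sh2 and 11.0 and 9.02 with NT in RCH. In RS4;11 and RCH the sh2 values were the lower ones, but after centring the lists overlapped in all 3 lines. The other constant region, chr15:40390661-40391453, had 11.9 and 10.3 with sh2 and 12.6 and 11.0 with NT in RS4;11, 10.9 and 11.2 with sh2 and 10.7 and 9.57 with NT in SEM, and 5.11 and 7.43 with sh2 and 8.70 and 9.23 with NT in RCH. The lists overlapped in RS4;11, sh2 was above NT in SEM and below it in RCH, and after centring the lists overlapped in every line.

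A BMF region at chr15:40407786-40408374 had a peak in 10 of the 12 lists and was missing from both RCH sh2 lists. RCH with NT had 8.15 and 8.92 there, and the nearest sh2 peak of the line lay 6313 bp away. RS4;11 had 11.4 and 10.7 with sh2 and 15.6 and 11.7 with NT, and SEM had 8.90 and 10.6 with sh2 and 8.47 and 8.58 with NT. At chr15:40385377-40385960 the peaks of RS4;11 were found with NT alone, at 4.61 and 4.40, while SEM had 4.21 and 3.98 with sh2 and 3.91 and 5.25 with NT and RCH had none.

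**Figure D3:**
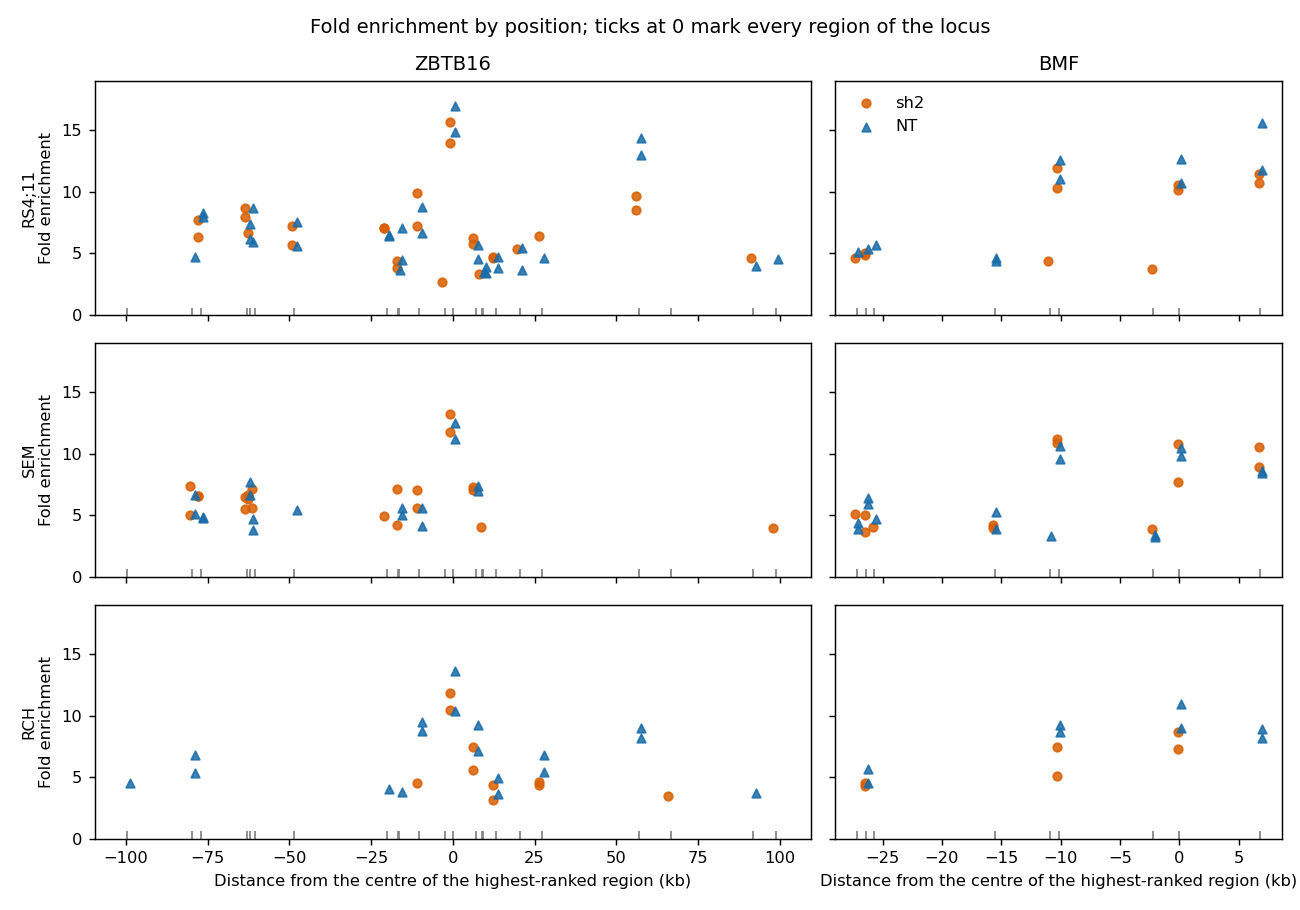
Fold enrichment at ZBTB16 (left) and BMF (right) by distance in kb from the centre of the highest-ranked region of the locus, for RS4;11, SEM and RCH from top to bottom, with sh2 lists as circles and NT lists as triangles, set slightly apart sideways. Grey ticks mark every region of the locus, and a tick without symbols is a region with no peak in that line. In RCH the pair of NT symbols at 8.22 and 9.02 at ZBTB16, and the pair at 8.15 and 8.92 at BMF, right of the centre, have no sh2 symbol beside them.

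The next count was of regions with peaks under 1 hairpin alone. These are called NT-only (peaks in both NT lists, none in either sh2 list) or sh2-only (the opposite). In RCH, 3 of 37 member regions were NT-only (8.11%, against 10.6% of all regions with a peak in the line), and these were the ZBTB16 regions at 114087444 and 113951038 and the BMF region at 40407786. In RS4;11, 2 of 53 were NT-only (3.77%, against 9.79%), the BMF region at 40385377 and a ZBTB16 region at chr11:114040046-114040379 (3.90 and 3.42), which was named after its values were seen. In SEM, 1 of 50 was NT-only (against 2.59% of all regions), the FKBP5 region chr6:35549477-35549812 (3.82 and 4.68), and 1 was sh2-only (against 7.69%), the ZBTB16 region at 113970175. In RS4;11 and RCH 0 members were sh2-only, against 0.854% and 1.90% of all regions. No member was NT-only or sh2-only in 2 or more lines (0 of 67, against 1.75% of all regions). A peak in all 4 lists was found at 31 of 53 members in RS4;11 (58.5%, against 48.5%), at 29 of 50 in SEM (58.0%, against 47.8%) and at 19 of 37 in RCH (51.4%, against 37.8%). The rest, 20 members in RS4;11 (37.7%, against 40.8%), 19 in SEM (38.0%, against 41.9%) and 15 in RCH (40.5%, against 49.7%), differed between the 2 lists of at least 1 sample.

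The lists of a line were also reduced to equal length by fold enrichment. This only removes the weakest peaks, so no sh2 peak could appear, and it cannot tell whether the sh2 lists missed a peak. All 3 RCH regions kept their peaks in both NT lists. With only peaks above the pooled median of 6.37, the ZBTB16 region at 113951038 had a peak in 1 NT list of RCH and was no longer NT-only. With equal lengths the 2 RS4;11 regions had none left in any list. Leaving out a list makes each class easier to enter, and shares over all regions are not given for that setting. With 1 list left out, the NT-only count reached 7 in RS4;11 (without NT list 2), 5 in SEM (without NT list 2) and in RCH 10 (without NT list 1) or 6 (without NT list 2), and the sh2-only count reached 6 in SEM (without either sh2 list) and 2 in RS4;11 (without either sh2 list or NT list 1).

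To compare strength between lists, log2 fold enrichment was centred on the median of all regions with a peak in all 4 lists of the line. A region counted as higher or lower with sh2 where both sh2 lists lay beyond both NT lists. Members with a peak in fewer lists could not enter. In RS4;11, 15 of 31 members were higher (48.4%, against 29.9% of all such regions) and 1 was lower (3.23%, against 17.1%). In SEM, 4 of 29 were higher (13.8%, against 21.7%) and 12 were lower (41.4%, against 29.1%). In RCH, 5 of 19 were higher (26.3%, against 33.4%) and 1 was lower (5.26%, against 21.5%). The members had a median difference of 0.15 in RS4;11 (0.06 for all such regions), -0.09 in SEM (-0.04) and 0.05 in RCH (0.06). The 2 lists of a sample differed by a median of 0.16 to 0.18. The counts also changed when single lists were left out. Fewer lists make each class easier to enter, and the matching shares over all regions are not given here. Leaving out 1 list gave, in RS4;11, 18 to 21 higher and up to 7 lower (without sh2 list 1 or NT list 2; 4 without NT list 1). In SEM it gave up to 10 higher (without sh2 list 2; 7 without sh2 list 1 or NT list 1) and up to 19 lower (without NT list 2). In RCH it gave 10 and 8 higher without sh2 lists 1 and 2 and 9 and 11 without NT lists 1 and 2. The lower count in RCH was 4 without sh2 list 2, 6 without NT list 1 and 5 without NT list 2. The split into higher and lower depended on the centring as well. As deposited, 9 members were higher (29.0%, against 12.9% of all such regions) and 7 lower (22.6%, against 31.2%) in RS4;11. In SEM 9 were higher (31.0%, against 36.1%) and 7 lower (24.1%, against 14.4%). In RCH 2 were higher (10.5%, against 6.27%) and 8 lower (42.1%, against 59.5%). All such regions then had a median difference of -0.07 in RS4;11, 0.09 in SEM and -0.29 in RCH.

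Among the 16 members with a peak in all 12 lists the lines could be compared over the same regions. In RS4;11 8 were higher with sh2 (against 38.0% of all regions with a peak in all lists) and 0 lower (against 11.1%). In SEM 0 were higher (against 18.4%) and 8 lower (against 32.5%). In RCH 5 were higher (31.2%, against 35.6%) and 1 lower (6.25%, against 20.2%). None was higher in all 3 lines (0 of 16, against 1.37%) and none lower in all 3 (0 of 16, against 0.947%). At 7 of 16 (43.8%, against 33.1%) a region was higher in 1 line and lower in another. The contrast between the lines depended on centring. As deposited, 5 of the 16 were higher (against 14.4%) and 3 lower (against 26.5%) in RS4;11, 3 higher (against 34.2%) and 4 lower (against 14.3%) in SEM, and 2 higher (against 6.50%) and 6 lower (against 59.3%) in RCH. A region higher in 1 line and lower in another was then found at 4 of 16 (against 34.9%). The BCL2L11 region at 111877774 was higher in RS4;11 and lower in SEM on both scales, with centred differences of 0.36 and -0.21. No test of the difference between lines was made, since each line had 1 sample per hairpin.

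**Figure D4:**
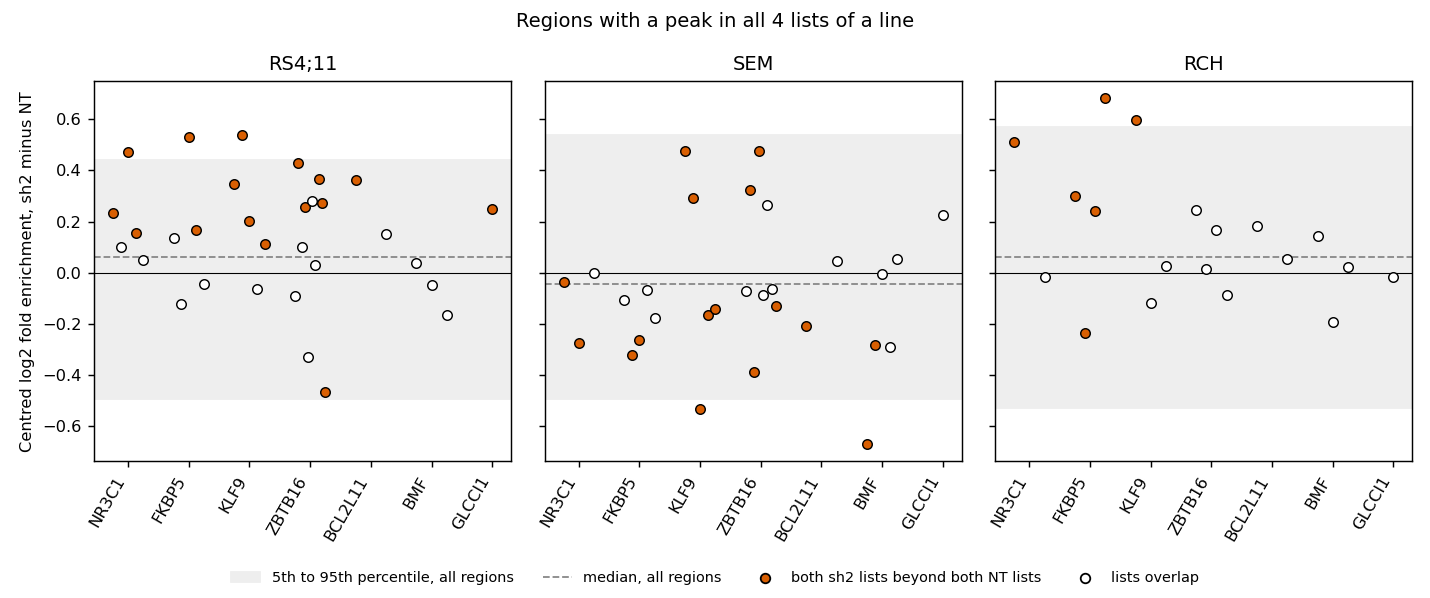
Centred log2 fold enrichment, sh2 minus NT, for member regions with a peak in all 4 lists of the line. Filled points have both sh2 lists beyond both NT lists, the grey band spans the 5th to 95th percentile of all such regions and the dashed line is their median. In RS4;11 15 of 16 filled points lie above 0, and in SEM 12 of 16 lie below it.

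The highest and the lowest centred difference within each line lay at FKBP5, KLF9, ZBTB16 or BMF. The lowest in RCH was -0.24, at the FKBP5 region at 35687339. Some values between these extremes were also large. In RCH the NR3C1 region at 142782903 had a difference of 0.51. The weak KLF9 region at 73026895 had 0.60 in RCH and -0.53 in SEM. In RCH the FKBP5 region chr6:35699102-35700161 was higher by 0.68, with 5.18 and 5.36 with sh2 and 4.33 and 4.03 with NT as deposited. In RS4;11 the KLF9 region at 73021295 was higher by 0.54 and the ZBTB16 region at 114087444 had a difference of -0.47. In SEM the BMF region chr15:40374528-40375219 had a difference of -0.67, with 3.62 and 5.00 with sh2 and 6.41 and 5.94 with NT, and the KLF9 region at 73013040 was higher by 0.48. The band from the 5th to the 95th percentile of all regions spanned -0.49 to 0.44 in RS4;11, -0.49 to 0.54 in SEM and -0.53 to 0.57 in RCH.

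Peak numbers at each locus were last compared across lines, with the lines as replicates. The mean log2 ratio of sh2 over NT (0.5 peaks added to each mean) was -0.26 ± 0.54 at ZBTB16, -0.23 ± 0.20 at FKBP5, -0.21 ± 0.19 at BMF, -0.10 ± 0.10 at KLF9, -0.02 ± 0.71 at NR3C1, 0.09 ± 0.15 at BCL2L11 and 0.11 ± 0.19 at GLCCI1 (SD, n = 3 lines). In exact two-sided sign-flip tests p was 0.5 at FKBP5, KLF9 and BMF, 0.75 at ZBTB16 and 1.0 at NR3C1, BCL2L11 and GLCCI1. With 3 lines the smallest possible p is 0.25, so no locus could have passed a threshold of 0.05. The ratio was 0.0 in RS4;11 at FKBP5, KLF9 and BMF, and in both RS4;11 and SEM at BCL2L11 and GLCCI1. Flipping the sign of such a ratio changes nothing, so at these loci the p given was the smallest that could be reached. FKBP5, KLF9 and BMF had fewer or as many peaks with sh2 in 3 of 3 lines, but with lists of equal length the mean ratio turned to 0.16 at FKBP5. For all peaks of the lists, RS4;11 had a log2 ratio of -0.35, SEM one of 0.22 and RCH one of -0.40.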

How the data were processed

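ATAC-seq peak lists of 3 lines, 6 samples and 12 lists were used. Per the submitters' processing notes, Bowtie2, MACS2 and hg19 were used; versions, peak thresholds and any read shift: not given in the sources used here. The deposited column 5 was read as a ratio, the fold enrichment of a peak, from its values; the authors' files name no unit, and give neither counts nor depth. Peaks on chromosomes 1 to 22 and X were merged over all lists, and 140 peaks elsewhere were left out. A list was open in a region where a peak overlapped it by at least 1 bp, and the highest peak gave its value. Log2 folds were centred on the list median over regions with a peak in all 4 lists of the line.

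Groups follow the sample titles, and lists were numbered by their names. Lines were paired by cell line in the sign-flip test, after averaging the 2 lists of a sample. The members and gene lists were chosen with earlier results of these data known. The text names, at each locus, the region of highest mean percentile within lists, regions open in all 12 lists where there were 3 or fewer, and up to 3 NT-only or sh2-only regions; other regions were named after their values were seen. The shares over regions open in all 12 lists, and the shares as deposited, were added after seeing the data. Alternatives were list length, a fold threshold, overlap, merging, window size, centring, the value per region and leaving out lists or lines. Python 3.11.15, numpy 2.4.6, pandas 2.3.3 and matplotlib 3.10.9 were used, and the counting was tested on simulated data. Gene annotation and genome sequence in hg19 were not used here, so the place of a region in a gene and motifs in regions were not analysed here.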

Additional observations from a re-analysis of the deposited data

Results flagged for a closer look

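Several values had every sh2 list on one side of every NT list in one line and on the other side in another. The difference between lines was not tested in any of these cases, since each line had 1 sample per hairpin. For the number of peaks, the log2 of sh2 over NT reached 0.74 in SEM and -0.68 in RCH at NR3C1, and 0.29 in SEM and -0.79 in RCH at ZBTB16. For all peaks of the lists it went the same ways, with 0.22 in SEM and -0.40 in RCH.

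The centred log2 fold enrichment, sh2 minus NT, went opposite ways at 8 regions after centring. At the NR3C1 region 142782903 values of 0.23 (RS4;11), -0.035 (SEM) and 0.51 (RCH) were found. At FKBP5 it was -0.32 in SEM and 0.30 in RCH for the region 35655749, and 0.53 in RS4;11, -0.26 in SEM and -0.24 in RCH for the region 35687339. At KLF9 values were 0.20 (RS4;11), -0.53 (SEM) and 0.60 (RCH) for the weak region 73026895, and 0.11 in RS4;11 and -0.14 in SEM for the region 73033691. At ZBTB16 it was 0.43 in RS4;11 and -0.39 in SEM for the region 113967729, and 0.37 in RS4;11 and -0.13 in SEM for the region 114037611. At the BCL2L11 region 111877774 it was 0.36 in RS4;11 and -0.21 in SEM. As deposited, without centring, 3 of the 8 regions still had opposed directions (FKBP5 35687339, ZBTB16 113967729 and BCL2L11 111877774), and the NR3C1 region was higher in all 3 lines. Counted over all members, 7 regions had opposed directions as deposited, the rest of them not among the 8. With the mean of the peaks in place of the highest, the lists of RS4;11 overlapped at FKBP5 35687339, those of SEM and RCH at FKBP5 35655749, and those of RS4;11 and SEM at KLF9 73033691. Of all regions with a peak in all 12 lists, 33.1% were higher in 1 line and lower in another, so such opposition was common across the genome.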

How the results depend on the processing

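No comparison within a line could be tested, depth is unknown, and weak peaks may be missed in shorter lists. For the counts below, shares over all regions are not given, except without centring, where they are given above. These settings can change the shares over all regions too, so the counts do not set the members apart. With lists of equal length the NT-only count was 0 in RS4;11 and 4 in SEM, and the sh2-only count was 1 in RS4;11 and 2 in RCH. With only peaks above the pooled median of 6.37 the NT-only count was 0 in RS4;11 and in SEM. It was 1 in RS4;11 where no sh2 peak lay within 1 kb, 5 in SEM where peaks had to cover 50% of a region (sh2-only then 1 in RCH), and 2 in SEM with regions merged within the line. Windows extended by 50 kb on each side can take in more regions, whose number is not given here, so counts can rise for that reason alone. They gave 3 lower regions in RS4;11, 7 higher in SEM, and 5 NT-only, 8 higher and 3 lower in RCH. Without centring, higher and lower counts were 9 and 7 in RS4;11, 9 and 7 in SEM, and 2 and 8 in RCH; quantile normalization and the mean of a region's peaks each gave 2 lower in RCH. Leaving out 1 list gave 3 to 7 NT-only, 0 to 2 sh2-only, 18 to 21 higher and 1 to 7 lower regions in RS4;11. The ranges were 1 to 5, 1 to 6, 5 to 10 and 14 to 19 in SEM, and 4 to 10, 0 to 1, 8 to 11 and 1 to 6 in RCH; fewer lists make each class easier to enter. The mean log2 ratio of peak number turned to 0.29 at NR3C1 and 0.16 at FKBP5 with equal lists, and to -0.53 at BCL2L11 above the pooled median. Leaving out 1 line gave -0.39 to 0.32 at NR3C1, with 0.03 without RS4;11 and 0.32 without RCH, and -0.54 to 0.0 at ZBTB16, with 0.0 without RCH. Without centring the log2 difference turned to -0.017 at KLF9 73033691 in RS4;11, to 0.10 at NR3C1 142782903 and 0.002 at ZBTB16 114037611 in SEM, and to -0.045 at FKBP5 35655749 and -0.11 at FKBP5 35695414 in RCH. With the mean of a region's peaks it turned to -0.065 at KLF9 73033691 in RS4;11 and -0.16 at FKBP5 35655749 in RCH. The causes were not tested. Without the replicate block, that is with lines unpaired, exact two-sided permutation p over 3 sh2 and 3 NT samples was 0.4 to 1.0 (smallest possible 0.1).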
